A study of Danio rerio with 9 samples.

Results

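Nonsense-mediated decay (NMD) factors were followed across wild-type zebrafish embryos and embryos carrying a knockout of kdm4aa or of kdm4ab. The genes were taken by name: upf1, upf2, upf3a, upf3b, smg1, smg5, smg6, smg8 and smg9. Of these 9 names, 8 were matched through Ensembl identifiers to the 32520 genes counted, and upf2 was not matched and is not analysed here. Wild type, the kdm4aa knockout and the kdm4ab knockout had 3 poly-A RNA libraries each, made from embryos whose stage, strain, age, mutant allele and number per library were not stated in the labels used here. No treatment is named for any group. KDM4 proteins take methyl groups off lysines of histone H3. The purpose of the sequencing was to find targets that act downstream when kdm4aa is lost, since those embryos develop late and show more cell death.

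NMD removes messenger RNAs on which translation ends too early. The helicase UPF1 is recruited to the terminating ribosome, and UPF2 with UPF3A or UPF3B links it to exon junction complexes that remain downstream of the stop codon. The kinase SMG1, held in a complex with SMG8 and SMG9, phosphorylates UPF1, and phosphorylated UPF1 binds SMG6, an endonuclease that cuts the transcript, and SMG5, which recruits decapping and deadenylation enzymes. In human cells several of these factors are themselves encoded by NMD-sensitive messages. In zebrafish, Upf3a and the COMPASS histone methyltransferase complex have been linked to the transcriptional adaptation that follows decay of a mutant message.

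The libraries held 27894551 to 46156237 counts. Except upf3a, each NMD factor had 479 to 12500 counts in every library, so that counting error was at most 4.57% of a value. One library stood apart from the others: kdm4ab knockout replicate 2 held counts for 14247 genes against 22025 to 23019 in the other 8 libraries. Across genes, on log2 CPM, it correlated at 0.921 with kdm4ab knockout replicate 1 and at 0.913 with replicate 3, against 0.996 to 0.997 for all other pairs of replicates. Differences that rest on it are therefore given with and without it. Of 13 matched marker genes of embryonic cell types, 9 reached 1 CPM in wild type and 4 (myod1, sox17, gata1a and hbae3) stayed under 1 CPM in every group. These markers thus showed neither somite nor blood cells. For somite this rests on myod1 alone, as the other listed marker, myf5, was not matched. Marker levels moved with genotype. The summed level was 796 to 999 CPM in wild type, 750 to 809 CPM in the kdm4aa knockout and 430 to 475 CPM in the kdm4ab knockout, and germ cell ddx4 gave the largest part of it in every group. Of the 9 markers, 6 were lower on average in the kdm4aa knockout than in wild type and 8 in replicates 1 and 3 of the kdm4ab knockout. Mean levels in wild type, the kdm4aa knockout and these replicates were 184, 87.5 and 8.47 CPM for enveloping layer krt4 and 23, 13.3 and 1.64 CPM for mesodermal tbxta, while germ cell nanos3 was at 8.9, 32.3 and 18.5 CPM. Markers of one cell type did not always move together. In the same order, mesodermal noto was at 36, 40.3 and 7.38 CPM and germ cell ddx4 at 353, 342 and 273 CPM. The part of cell composition and of developmental timing in the results below was not tested, and in bulk RNA fewer cells of a type and less RNA per cell cannot be told apart.

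Levels are given in CPM, a count rate scaled to a common library size by the trimmed mean of M values (TMM), for replicates 1, 2 and 3 in that order. These values are not divided by transcript length, so they compare groups for a gene and not genes with each other. Differences are log2 fold changes with their standard error (SE), and calls are genes with an adjusted p under 0.05 by the quasi-likelihood test of edgeR, where the Benjamini-Hochberg adjustment runs over all genes tested. Unless stated otherwise, each comparison was fitted on the 6 libraries of its own 2 groups. The labels do not say that replicates came from separate clutches, and the spread behind each p-value may then be technical.

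In the kdm4aa knockout the transcripts of smg8 and smg9 fell, each 1.26-fold, and the other 6 NMD factors did not pass the test. Called were thus 2 of 8 factors, or 25%, both lower, while 51.1% of all 18196 genes tested were called, 25.2% higher and 25.8% lower. The median absolute log2 difference of the factors was 0.15, against 0.43 over all genes tested. The latter include genes of lower counts, and no set of genes with like counts was compared. Each of the other gene lists followed below also had a median under 0.43, from 0.16 to 0.39.

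Both called genes encode partners of the kinase SMG1, whose own gene was not called, and the share called lower was near that of all genes. The transcript of smg8 (ENSDARG00000061378) was at 107, 106 and 99.3 CPM in wild type and at 82.5, 79.6 and 84.7 CPM in the kdm4aa knockout. No knockout library reached the lowest of wild type. The log2 difference was −0.34 (SE 0.08, 1.26-fold lower, adjusted p 0.00171, edgeR). This call was kept when any single library of the 6 was left out, with adjusted p from 0.00445 to 0.00859, and was lost when all 9 libraries shared one estimate of the spread (adjusted p 0.128), a fit in which 8.88% of all genes were called and none of the 8 factors.

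The transcript of smg9 (ENSDARG00000076627) was at 19.7, 21.9 and 20.7 CPM in wild type and at 15.1, 18.7 and 15.7 CPM in the knockout, again without overlap. The log2 fold change was −0.33 (SE 0.12, 1.26-fold, adjusted p 0.0281, edgeR). It rested on single libraries more than that of smg8 did. The adjusted p was 0.0762 without wild type replicate 2, 0.0729 without wild type replicate 3, 0.113 without kdm4aa knockout replicate 1 and 0.0893 without kdm4aa knockout replicate 3, and with all 9 libraries in the fit it was 0.468.

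The kinase itself, smg1 (ENSDARG00000054570), was at 127, 108 and 121 CPM in wild type and at 90.9, 103 and 116 CPM in the kdm4aa knockout. The groups overlapped, with a log2 value of −0.20 (SE 0.09, adjusted p 0.091, edgeR). It was called lower without wild type replicate 2 (log2 −0.26, adjusted p 0.0429) and without kdm4aa knockout replicate 3 (log2 −0.28, adjusted p 0.029).

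The transcripts of the helicase gene upf1 and of upf3b stayed close to wild type. The transcript of upf1 (ENSDARG00000016302) was at 294, 274 and 277 CPM in wild type and at 297, 281 and 304 CPM in the kdm4aa knockout, a log2 difference of 0.06 (SE 0.07, adjusted p 0.477, edgeR). The transcript of upf3b (ENSDARG00000000489) was at 58.8, 54.9 and 61.1 CPM in wild type and at 54.4, 65.2 and 56.3 CPM in the knockout, a log2 difference of 0.01 (SE 0.09, adjusted p 0.934). For both genes the groups overlapped.

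Of the decay effectors, smg5 (ENSDARG00000041481) was at 144, 142 and 140.4 CPM in wild type and at 156, 145 and 155 CPM in the kdm4aa knockout. All 3 knockout libraries lay above wild type, the closest by a fraction of 1 CPM, at a log2 difference of 0.10 (SE 0.07, adjusted p 0.269, edgeR). The endonuclease gene smg6 (ENSDARG00000100481) was at 62.8, 59.8 and 58.2 CPM in wild type and at 56.2, 60.8 and 64.0 CPM in the knockout. Its groups overlapped, with a log2 difference of 0.00 (SE 0.08, adjusted p 0.975). With smg5, smg8 and smg9, 3 of 8 factors had groups without overlap, against 58.7% of all genes tested.

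**Figure D1:**
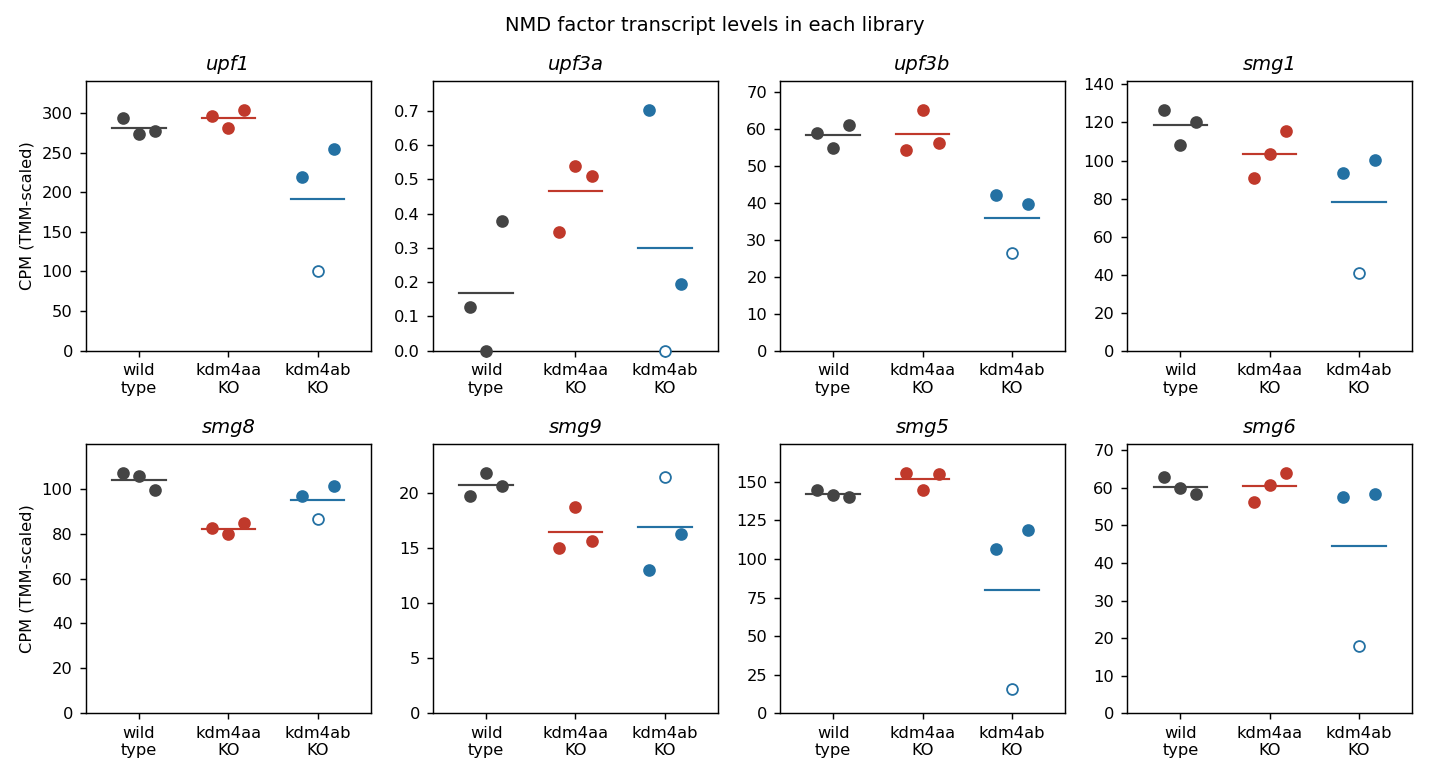
Each panel plots the level of one NMD factor in CPM (linear axis, starting at 0) for every library of wild type, the kdm4aa knockout (KO) and the kdm4ab knockout; points are libraries, the line is the group mean and the open symbol is kdm4ab knockout replicate 2. The smg8 points of the kdm4aa knockout, 79.6 to 84.7 CPM, sit below the 99.3 to 107 CPM of wild type, and the open symbol is far below the other kdm4ab knockout points for smg5 and smg6.

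The paralog upf3a (ENSDARG00000069297) was barely detected. It had 5, 0 and 17 counts in wild type, 12, 18 and 21 in the kdm4aa knockout, and 35, 0 and 8 in the kdm4ab knockout. In CPM these are 0.128, 0 and 0.380 in wild type, 0.347, 0.539 and 0.511 in the kdm4aa knockout, and 0.703, 0 and 0.195 in the kdm4ab knockout. In wild type replicate 2 a count of 0 allows a level of up to 0.0781 CPM, and in kdm4ab knockout replicate 2 of up to 0.0986 CPM (3 counts, counting error only). The fitted log2 difference of the kdm4aa knockout from wild type was 1.41 (SE 0.79, adjusted p 0.153, edgeR), with overlapping groups. It was called higher without wild type replicate 3, at a log2 difference of 2.80 (adjusted p 0.0379).

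As a share of the counts of the UPF3 pair, upf3a made up 0.217%, 0% and 0.618% in wild type, 0.634%, 0.82% and 0.899% in the kdm4aa knockout, and 1.64%, 0% and 0.489% in the kdm4ab knockout. The shares of the kdm4aa knockout lay above those of wild type by a small margin, and those of the kdm4ab knockout spanned both. The log2 ratio of upf3a to upf3b, with 0.5 added to each count, was higher by 2.39 in the kdm4aa knockout than in wild type (two-sided exact permutation p 0.1, the smallest that 3 against 3 libraries can give). It differed by 1.31 between the kdm4ab knockout and wild type (exact permutation p 0.6) and by 1.08 between the knockouts (exact permutation p 0.7). The first difference was 1.05 without wild type replicate 2, the library with no upf3a count, and 3.42 without wild type replicate 3. The other 2 changed sign without a single library, to −0.04 without wild type replicate 2 and to −0.22 without kdm4ab knockout replicate 2.

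In the kdm4ab knockout, 7 NMD factors could be tested and all 7 were lower on average than in wild type, but none was called by edgeR. One of them, upf3b, had an unadjusted p under 0.05, and DESeq2 called 1, the same gene. The median log2 difference in edgeR was −0.53 for the 7 factors and −0.02 over all genes tested. Here too all genes include those of lower counts, and no set of genes with like counts was compared, with or without replicate 2. The share of all genes with a lower average was not counted. Of all 18097 genes tested, 6.03% were called by edgeR, and 20.7% by DESeq2. The biological coefficient of variation was 57.2% in this fit and 13.2% without replicate 2. Without replicate 2, 5 of 8 factors were called lower (62.5%) and none higher, beside 51.1% of all genes called, 25% lower. The median log2 difference of the factors was then −0.26, against 0.01 over all genes. In that fit 7 of the 8 factors were lower than in wild type, smg6 and smg8 only slightly.

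The change with most support was in upf3b. It was at 42.1, 26.4 and 39.6 CPM in the kdm4ab knockout, below each wild-type library (54.9 to 61.1 CPM). The log2 difference was −0.67 (SE 0.22) with an adjusted p of 0.131 in edgeR and 0.0176 in DESeq2. Without replicate 2 it was −0.50 (SE 0.10, 1.41-fold lower, adjusted p 0.00122), and with all 9 libraries in the fit −0.68 (adjusted p 0.0414, with 17% of all genes called).

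Levels of upf1 in the kdm4ab knockout were 219, 101 and 255 CPM, all below the 274 to 294 CPM of wild type. The log2 difference was −0.53 (SE 0.33, adjusted p 0.389, edgeR), and −0.24 (SE 0.09, adjusted p 0.0362) without replicate 2. The effector gene smg5 was at 106, 15.8 and 119 CPM, also below every wild-type library. Its log2 difference was −0.80 (SE 0.67, adjusted p 0.513) with replicate 2 and −0.33 (SE 0.08, adjusted p 0.00652) without it.

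Of the kinase complex, smg1 was at 93.3, 40.8 and 100.2 CPM, below every wild-type library, with a log2 difference of −0.58 (SE 0.34, adjusted p 0.358, edgeR) and of −0.28 (SE 0.09, adjusted p 0.0241) without replicate 2. For smg9, at 13.0, 21.5 and 16.3 CPM, replicate 2 was the high library. The log2 difference of smg9 was −0.26 (SE 0.25, adjusted p 0.574), and −0.49 (SE 0.14, adjusted p 0.0101) without replicate 2. The third gene, smg8, was at 96.8, 86.4 and 101 CPM and overlapped with wild type. Its log2 difference of −0.11 (SE 0.14, adjusted p 0.695) came to −0.06 (SE 0.09, adjusted p 0.598) without replicate 2.

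The endonuclease gene smg6 was at 57.7, 17.9 and 58.3 CPM. Outside replicate 2 it was at the level of wild type, with a log2 difference of −0.04 (SE 0.09, adjusted p 0.723, edgeR), and with replicate 2 the difference was −0.41 (SE 0.44, adjusted p 0.619). Groups without overlap were found for upf1, upf3b, smg1 and smg5, 4 of the 7 tested and all lower, where 44.6% of all genes tested had none, 26.6% lower. Without replicate 2, smg9 joined them, 5 of 8 factors and all lower, beside 68.9% of all genes, 34.5% lower.

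**Figure D2:**
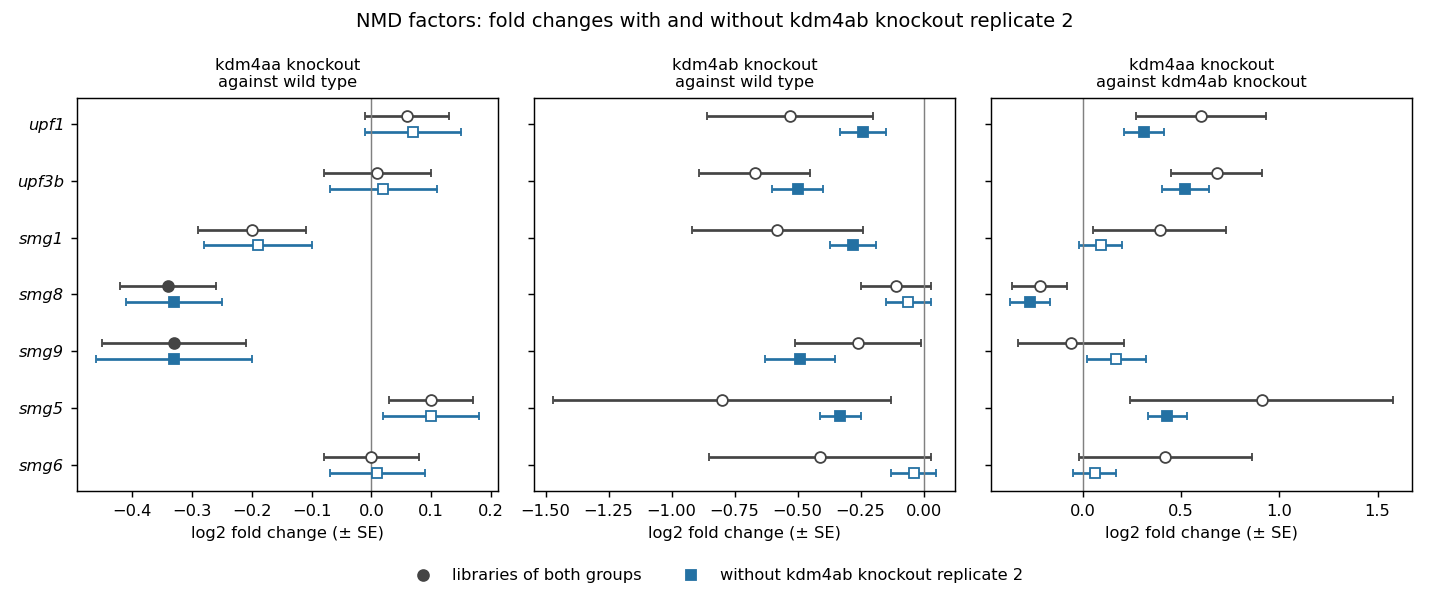
Log2 fold changes ± SE of 7 NMD factors (upf3a, with few counts, is left out) in the 3 comparisons; circles are the fits on the libraries of both groups, squares the fits without kdm4ab knockout replicate 2 (in the left panel, where that library is in neither group, the fit of the other 8 libraries), and filled symbols are called at an adjusted p under 0.05 by edgeR. The horizontal scales differ between panels. In the middle panel the error bars of smg5 shrink from an SE of 0.67 to 0.08 when the library is left out.

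The library that stood apart did not lower the NMD factors by one common factor. Relative to the mean of replicates 1 and 3, kdm4ab knockout replicate 2 held 14% of the smg5 level, 30.9% of smg6, 42.2% of smg1, 42.7% of upf1, 64.5% of upf3b, 87.3% of smg8 and 147% of smg9. Over 9536 genes with at least 10 CPM in replicates 1 and 3, the median was 79.2% with quartiles of 42.8% and 138%. Of these genes, 30.3% were under 50%, beside 4 of the 7 factors. The transcripts of upf3a, kdm4aa and kdm4ab had no count in this library.

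**Figure D3:**
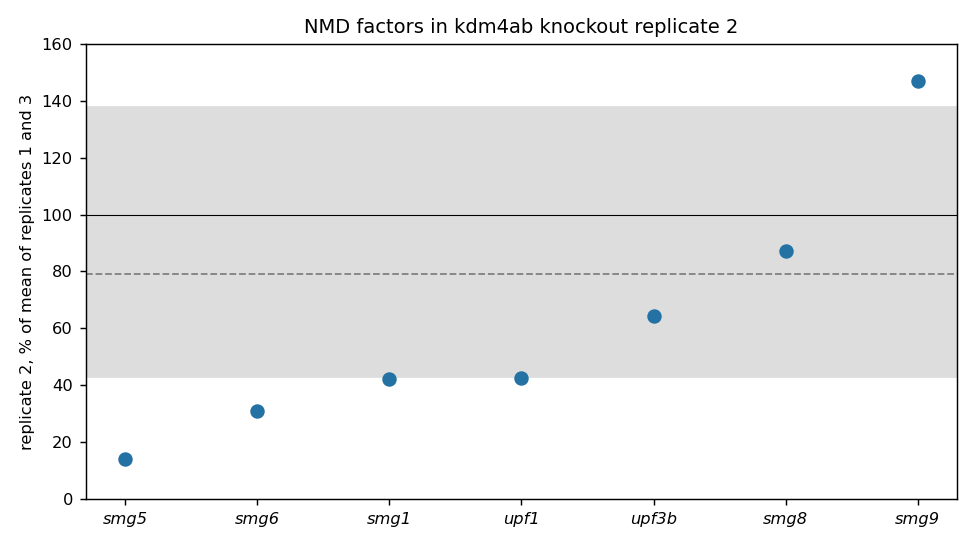
Level of 7 NMD factors in kdm4ab knockout replicate 2 as a percent of the mean of replicates 1 and 3 (linear axis from 0); the grey band spans the quartiles, 42.8% to 138%, and the dashed line is the median, 79.2%, of 9536 genes with at least 10 CPM. The factors run from 14% for smg5 to 147% for smg9.

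Set against each other, the knockouts differed in none of the 8 NMD factors by edgeR with all libraries. One factor, upf3b, had an unadjusted p under 0.05, DESeq2 called 1, again upf3b. Of the 17746 genes tested, 7.09% were called by edgeR, and 21.4% by DESeq2. Without kdm4ab knockout replicate 2, 4 of 8 were called, beside 53.8% of all genes. Higher in the kdm4aa knockout were then upf3b (log2 0.52, SE 0.12, adjusted p 0.00116), smg5 (log2 0.43, SE 0.10, adjusted p 0.00132) and upf1 (log2 0.31, SE 0.10, adjusted p 0.014). Lower was smg8 (log2 −0.27, SE 0.10, adjusted p 0.027).

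With replicate 2 the same differences were 0.68 for upf3b (adjusted p 0.128, edgeR), 0.91 for smg5 (adjusted p 0.476), 0.60 for upf1 (adjusted p 0.342) and −0.22 for smg8 (adjusted p 0.405). For each of these 4 genes the libraries of the knockouts did not overlap, which was the case for 41.8% of all genes tested. The count without replicate 2 was also 4 of 8, beside 69.4% of all genes. The log2 difference of smg9 changed sign with that library, from −0.06 (adjusted p 0.923) with it to 0.17 (adjusted p 0.376) without it. Those of smg1 and smg6 without it were 0.09 (adjusted p 0.5) and 0.06 (adjusted p 0.676). Both knockouts were compared with the same 3 wild-type libraries, so the 2 comparisons with wild type are not independent of each other.

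The wider set of decay and COMPASS genes was followed in 7 lists. In the kdm4aa knockout the median absolute log2 difference of these lists ran from 0.16 for the exosome list to 0.39 for COMPASS genes, below the 0.43 of all genes tested, and the genes named from them are those with the smallest p. Other NMD and termination factors had 6 higher and 1 lower of 15 tested (46.7% called, median log2 0.23), beside the 51.1% of all genes called and their median of −0.00. Over all genes, 25.2% were called higher and 25.8% lower, to be set beside every list below. Higher were pabpc1a, which encodes a cytoplasmic poly(A)-binding protein, at 914 ± 59.6 CPM in wild type against 1427 ± 48.7 CPM in the knockout (SD, n = 3; log2 0.64, adjusted p 2.89e-06, edgeR), eif3ea, for a subunit of initiation factor eIF3 (log2 0.35, adjusted p 0.000684), and gspt1, for release factor eRF3 (ENSDARG00000031048, one of 2 identifiers with this symbol; log2 0.64, adjusted p 0.00126). Lower was dhx34, a helicase that in human cells promotes UPF1 phosphorylation, at 48.3 ± 3.45 CPM and 33.3 ± 2.13 CPM (log2 −0.53, adjusted p 0.000232). With all 9 libraries in the fit none of the 15 was called. In the kdm4ab knockout dhx34 was also lower, at 29.7 to 39.6 CPM against 44.8 to 51.7 CPM in wild type. It was not called there on the 6 libraries of both groups and was called in 2 of 12 alternative fits.

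The exon junction complex and its associates had 4 higher and 0 lower of 9 tested (44.4% called, median log2 0.25), beside 51.1% of all genes called. The highest change of all these lists was in rnps1, which encodes a splicing-linked associate of the complex. It was at 7.28, 7.24 and 6.79 CPM in wild type and at 49.6, 46.7 and 44.3 CPM in the kdm4aa knockout, a log2 difference of 2.72 (SE 0.11, 6.61-fold higher, adjusted p 2.45e-11, edgeR). In the kdm4ab knockout it was at 3.31, 22.8 and 6.87 CPM and overlapped with wild type. Without replicate 2 the knockouts differed by a log2 of 3.21 (adjusted p 2.86e-09), and with it by 2.06 (adjusted p 0.136). The rnps1 call against wild type held in each of 12 alternative fits. Also higher were thoc5, for a subunit of the TREX export complex (log2 0.42, adjusted p 0.000921), acin1a (log2 0.37, adjusted p 0.000386) and, with overlapping groups, eif4a3, the helicase at the core of the complex (log2 0.26, adjusted p 0.0207). The eif4a3 call was lost without wild type replicate 2 or 3 and without kdm4aa knockout replicate 1 or 3 (adjusted p 0.0577 to 0.0959).

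Decapping and 5′ to 3′ decay had 6 higher and 2 lower of 17 tested (47.1% called, median log2 0.09), beside 51.1% of all genes called. The catalytic decapping subunit gene dcp2 was at 21.7, 21.5 and 24.2 CPM in wild type, at 35.7, 32.3 and 32.8 CPM in the kdm4aa knockout and at 40.2, 49.4 and 36.6 CPM in the kdm4ab knockout. It rose in both, by a log2 of 0.58 (adjusted p 0.000172, edgeR) and of 0.93 (adjusted p 0.0482; 0.79 and 9.69e-05 without kdm4ab knockout replicate 2). Its partner gene dcp1b rose in the kdm4aa knockout (log2 0.88, adjusted p 1.68e-05), as did lsm6, for a subunit of the LSM ring (log2 0.67, adjusted p 0.000301), while the decapping enhancer gene edc3 fell (log2 −0.47, adjusted p 0.000205).

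Deadenylation genes had 5 higher and 5 lower of 16 tested (62.5% called, median log2 0.05), beside 51.1% of all genes called. Of the paralogous deadenylase genes of the CCR4-NOT complex, cnot6b fell and cnot6l rose. For cnot6b the values were 134, 183 and 158 CPM in wild type, then 48.6, 51.6 and 51.7 CPM in the kdm4aa knockout and 169, 123 and 148 CPM in the kdm4ab knockout. Its log2 difference was −1.64 (SE 0.10, 3.13-fold lower, adjusted p 4.54e-09, edgeR) from wild type, and the kdm4aa knockout was also lower than the kdm4ab knockout (log2 −1.56, adjusted p 0.00938, and −1.65, adjusted p 7.49e-10, without kdm4ab knockout replicate 2). The log2 difference of cnot6l between the kdm4aa knockout and wild type was 0.96 (adjusted p 4.17e-06, edgeR). In the kdm4ab knockout cnot6l was at 24.4 to 26.6 CPM in replicates 1 and 3 and at 9.11 CPM in replicate 2. Wild type was at 13.6 to 17.3 CPM. The genes of the antiproliferative BTG/TOB proteins, which bind the complex, also went both ways in the kdm4aa knockout, with tob1b lower (log2 −0.73, adjusted p 1.43e-06) and btg1 higher (log2 0.76, adjusted p 1.25e-05). In the kdm4ab knockout tob1b was also lower, at 77.9 to 110.6 CPM against 154.5 to 171.7 CPM in wild type. It was not called there on the 6 libraries of both groups and was called in 4 of 12 alternative fits. For btg1 the kdm4ab knockout overlapped with wild type.

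The list of exosome, Ski complex and ribosome rescue genes had 6 higher and 3 lower of 22 tested (40.9% called, median log2 0.02), beside 51.1% of all genes called. Of the listed exosome core genes, exosc4 and exosc9 were called higher. The other core genes, exosc1 to exosc3 and exosc5 to exosc8, were not called (log2 −0.217 to 0.118). The transcript of exosc4 went from 23.0 ± 2.09 CPM to 55.0 ± 4.2 CPM (SD, n = 3; log2 1.26, 2.39-fold, adjusted p 8.32e-08, edgeR), and that of exosc9 was higher by a log2 of 0.40 (adjusted p 0.000422). In the kdm4ab knockout exosc4 was also higher, at 34.2 to 59.6 CPM against 20.7 to 24.7 CPM in wild type. It was not called there on the 6 libraries of both groups and was called in 4 of 12 alternative fits. For exosc9 the kdm4ab knockout overlapped with wild type. Of the genes for ribosome-linked factors, gtpbp1 (ENSDARG00000042900, one of 2 identifiers) was higher in the kdm4aa knockout (log2 0.89, adjusted p 1.93e-07, edgeR) and znf598, for a ubiquitin ligase that senses collided ribosomes, was lower (log2 −0.37, adjusted p 0.000691).

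COMPASS genes, which encode histone H3 lysine 4 methyltransferases and subunits of their complexes, had 4 higher and 6 lower of 14 tested (71.4% called, median log2 −0.18), beside 51.1% of all genes called. The shared subunit gene rbbp5 was at 56.8, 64.7 and 56.5 CPM in wild type, at 119.8, 124 and 106 CPM in the kdm4aa knockout and at 95.7, 128 and 105 CPM in the kdm4ab knockout. It rose in both, by a log2 of 0.98 (adjusted p 3.71e-07, edgeR) and of 0.91 (adjusted p 0.0422; 0.77 and 3.52e-05 without kdm4ab knockout replicate 2). The shared subunit gene dpy30 was higher in the kdm4aa knockout (log2 0.68, adjusted p 2.35e-05), and the methyltransferase genes kmt2d (log2 −0.50, adjusted p 0.000134) and kmt2ba (log2 −0.49, adjusted p 0.000137) were lower. In the kdm4ab knockout kmt2d was also lower, at 210 to 247 CPM in replicates 1 and 3 and 17.9 CPM in replicate 2, against 318 to 357 CPM in wild type. It was not called there on the 6 libraries of both groups and was called in 2 of 12 alternative fits. For dpy30 and kmt2ba the kdm4ab knockout overlapped with wild type.

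Genes with transcripts reported as NMD substrates in vertebrates had 4 higher and 1 lower of 15 tested (33.3% called, median log2 0.15), a smaller share than that of all genes. In the kdm4aa knockout the noncoding host gene gas5 fell, from 31.4, 32.4 and 34.7 CPM to 15.8, 16.2 and 15.2 CPM (log2 −1.06, SE 0.10, adjusted p 5.22e-07, edgeR). It was lower still in the kdm4ab knockout, at 3.13, 5.29 and 1.68 CPM, with a log2 difference of −3.26 (SE 0.46, adjusted p 0.0192) from wild type, and the knockouts differed by 2.20 (adjusted p 0.0445). Without kdm4ab knockout replicate 2 these gas5 differences were −3.74 (adjusted p 4.39e-08) and 2.69 (adjusted p 3.91e-08). The cell cycle inhibitor gene cdkn1a rose in both, from 5.87, 5.31 and 6.50 CPM to 21.6, 14.1 and 19.9 CPM in the kdm4aa knockout (log2 1.65, adjusted p 6.99e-07) and to 57.3, 17.8 and 69.9 CPM in the kdm4ab knockout (log2 3.06, adjusted p 0.0289; 3.44 and 1.98e-09 without replicate 2). The stress-response factor gene atf3 (log2 0.95, adjusted p 9.11e-05) and the splicing factor gene hnrnpl (log2 0.49, adjusted p 0.000209) were higher in the kdm4aa knockout. The level of atf3 was as high in the kdm4ab knockout, at 15.04 to 16.67 CPM against 6.50 to 10.04 CPM in wild type. There it was not called on the 6 libraries of both groups and was called in 4 of 12 alternative fits. For hnrnpl the kdm4ab knockout overlapped with wild type. Gene counts do not tell the NMD-sensitive isoform of these genes from the other isoforms.

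With all 9 libraries in the fit, 8 of the named list genes kept their call in the kdm4aa knockout: rnps1, dcp1b, cnot6b, tob1b, exosc4, gtpbp1, rbbp5 and atf3. The lists after the first then held 1, 1, 3, 2, 1 and 1 calls, in the order given above, beside 8.88% of all genes.

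**Figure D4:**
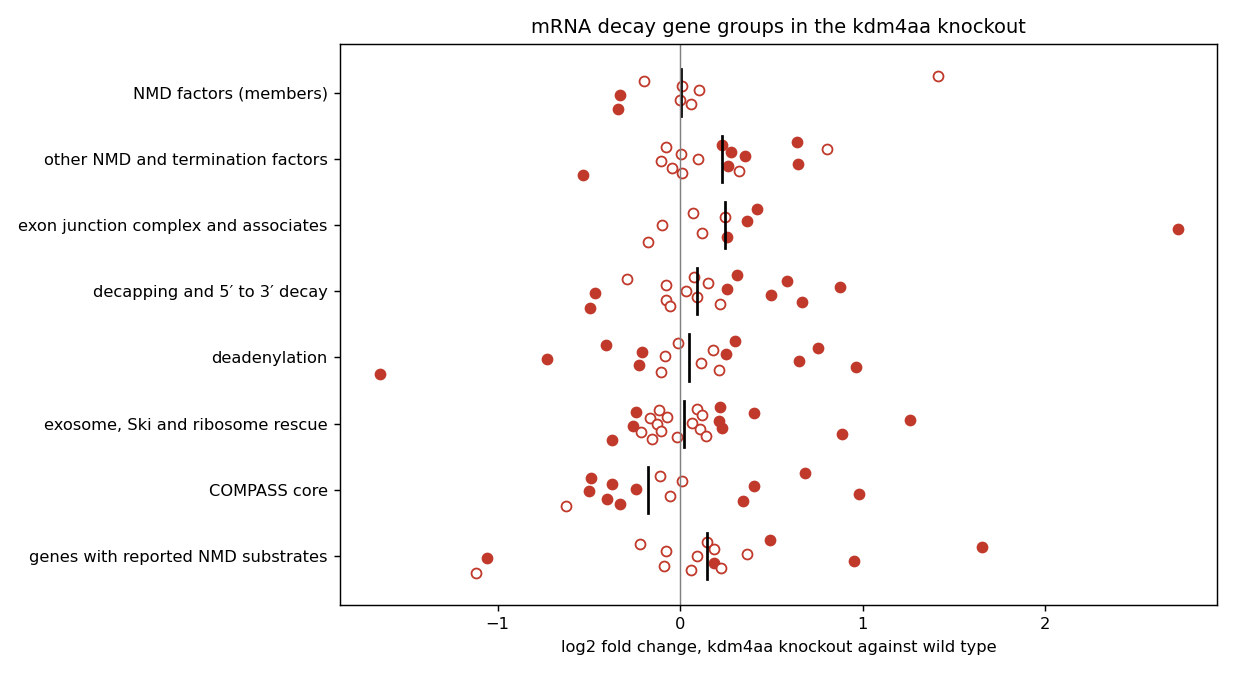
Log2 fold change of every tested gene in the kdm4aa knockout against wild type, by gene group; filled points are called at an adjusted p under 0.05 by edgeR and the black bar is the group's median. The NMD factors lie between −0.34 and 1.41, where the point at 1.41 is the barely detected upf3a, and the point at 2.72 is rnps1.

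In the kdm4ab knockout, with all libraries, these lists held 6 calls among 107 genes tested (5.61%), close to the 6.03% of all genes. Of those named here they were dcp2, rbbp5, cdkn1a and gas5. The calls of dcp2 and rbbp5 were lost with RLE size factors (adjusted p 0.0611 and 0.0526) and with no filter on low counts (0.0797 and 0.0628). When any 1 of the 5 libraries other than replicate 2 was left out, the adjusted p in edgeR was 0.0963 to 0.261 for dcp2, 0.106 to 0.254 for rbbp5, 0.0914 to 0.185 for cdkn1a and 0.0471 to 0.125 for gas5, and all 4 were called without replicate 2. Far fewer of all genes were called in those 5 fits than with all libraries, as counted below, so these losses are not particular to the named genes. Between the knockouts the same fits gave 0.0492 to 0.0936 for cnot6b and 0.0861 to 0.203 for gas5. The gas5 difference was also not called without a filter on low counts (adjusted p 0.0524). Without replicate 2, which leaves 2 kdm4ab knockout libraries, more genes were called lower than higher in each of the 7 lists. The share called in either direction ran from 33.3% for other NMD and termination factors to 73.3% for NMD substrates, beside 51.1% of all genes. The counts were 4 lower and 1 higher of 15 for other NMD and termination factors, 5 and 0 of 9 for the exon junction complex and associates, 5 and 3 of 17 for decapping, 7 and 3 of 16 for deadenylation, 7 and 3 of 22 for the exosome list, 7 and 3 of 14 for COMPASS and 8 and 3 of 15 for NMD substrates, beside 26.1% of all genes called higher and 25% lower.

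The genes whose level followed that of smg8 most closely over the 9 libraries, among 10955 genes with a symbol and a mean of at least 5 CPM, were GBA2 (ENSDARG00000061472), with a Pearson correlation of 0.981 on log2(CPM + 1), CNN3 (ENSDARG00000029856, one of 2 identifiers with this symbol; 0.98) and map4k6 (0.978). Over the 8 libraries without kdm4ab knockout replicate 2 the values were 0.98, 0.979 and 0.977. The points share the libraries and their scaling, and the genes were picked for this correlation, so it carries no p. All 3 had the order of smg8, highest in wild type, then the kdm4ab knockout, then the kdm4aa knockout, with means of 72.7, 59.9 and 40.1 CPM for GBA2 and of 22.4, 12.9 and 2.79 CPM for map4k6. This shared order follows from how the genes were picked. For smg8 itself the kdm4ab knockout overlapped with wild type.

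As context, the targeted transcripts differed in how they behaved in their own knockouts. The transcript of kdm4ab (ENSDARG00000019103) was at 2.37, 0 and 2.22 CPM in the kdm4ab knockout and at 128, 169 and 122 CPM in wild type (log2 −6.47, SE 1.29, adjusted p 0.0432, edgeR). Without replicate 2 the log2 value was −5.91 (adjusted p 3.31e-10), and the adjusted p was 0.122 to 0.2 without any 1 of the other 5 libraries. Far fewer of all genes were called in those 5 fits than with all libraries. The transcript of kdm4aa (ENSDARG00000018782) was at 17.9, 14.7 and 17.3 CPM in the kdm4aa knockout and at 18.1, 20.7 and 18.7 CPM in wild type (log2 −0.20, SE 0.12, adjusted p 0.166), so its level does not check the labels of those libraries. The log2 difference of kdm4ab in the kdm4aa knockout was 0.18 (adjusted p 0.176), and it was called higher without wild type replicate 2 (log2 0.34, adjusted p 0.00492). That of kdm4aa in the kdm4ab knockout was −0.93 (adjusted p 0.744) with replicate 2, which had no kdm4aa count, and −0.36 (adjusted p 0.0388) without it.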

How the data were processed

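Poly-A RNA of 9 libraries from zebrafish embryos was sequenced on Illumina platforms, per the labels' protocols. The authors deposited whole-number counts per Ensembl gene and library, not normalized. The submitters' processing notes name the builds GRCz11 and danRer11, and the aligner, counting tool, annotation release and strandedness were not stated there. Overlapping and antisense genes and near-identical paralogs may therefore share reads.

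Titles gave the group and the replicate number of each library. Symbols were matched without regard to case through a table of identifiers and names, which covered 29201 of 32520 identifiers. Counts were filtered with filterByExpr, scaled by TMM and tested with edgeR 4.0.16 (R 4.3.3) by the quasi-likelihood F-test, two-sided, adjusted by Benjamini-Hochberg over all genes tested. CPM were scaled over all 9 libraries. The SE, which is approximate, was taken as |log2| over the root of F. Alternatives were DESeq2 1.42.0, RLE size factors, no filter, all 9 or 8 libraries in the fit, a replicate block, other added counts and each library left out. Within groups, libraries differed by a chi-square of at least 9.58 per gene, so none was the same library sequenced again. This value cannot tell separate libraries of the same embryos or RNA from other replicates. The code was checked on simulated counts.

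The members, lists, tests and the choice to fit each pair of groups alone were made with earlier results of these data known. Named are all factors, the targeted genes, up to 4 genes per list with the smallest p in the kdm4aa knockout against wild type, and the 3 genes most like the factor with the smallest p there.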

Additional observations from a re-analysis of the deposited data

Results flagged for a closer look

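The transcript of smg5 lay on different sides of wild type in the knockouts, on the kdm4aa side by a very small margin. All 3 kdm4ab knockout libraries lay below every wild-type library. All 3 kdm4aa knockout libraries lay above, the lowest at 144.8 CPM against a wild-type maximum of 144.4 CPM. Of all genes tested, 44.6% had no overlap with wild type in the kdm4ab knockout and 58.7% in the kdm4aa knockout, in either direction. The share of all genes that lay on different sides of wild type in the knockouts was not counted. The difference between the knockouts, a log2 of 0.91, had an adjusted p of 0.476 in edgeR, and of 0.00132 without kdm4ab knockout replicate 2, at a log2 of 0.43. The kdm4aa side alone was not called (log2 0.10, adjusted p 0.269). The transcript of kdm4ab differed between the knockouts by a log2 of 6.65 (adjusted p 0.0374), or 6.10 (adjusted p 1.05e-14) without kdm4ab knockout replicate 2, as its own knockout lies in one of them. Groups of 3 libraries were not tested for single outlying samples.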

How the results depend on the processing

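Calls depended most on kdm4ab knockout replicate 2 and on which libraries shared an estimate of the spread. In the kdm4aa knockout against wild type, 9290 genes were called, 1687 with all 9 libraries in the fit and 7963 to 8817 with 1 library left out, and the called factors numbered 2, 0 and 1 to 2. In the kdm4ab knockout against wild type, 1092 genes were called, 756 without a filter, 3737 by DESeq2, 3232 with 9 libraries, 9848 with 8, and 2 to 9777 with 1 library left out. These were 2 without any 1 of the wild-type libraries, 54 without kdm4ab knockout replicate 1, 141 without replicate 3 and 9777 without replicate 2. Called factors numbered 0, then 1 by DESeq2, 1 with 9 libraries, 5 with 8, and 0 to 5. Between the knockouts 1259 genes were called, 828 without a filter, 3775 by DESeq2, 3457 with 9 libraries, 10499 with 8, and 1 to 10169 with 1 left out, and called factors numbered 0, then 1, 1, 4, and 0 to 4. The cause was not tested.

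Same-numbered libraries deviated from their group means with correlations of −0.111 to 0.234, and differently numbered ones with −0.215 to 0.174. With 3 libraries per group these values cannot settle whether a shared number marks a shared clutch or batch. The main fits use no pairing. With the replicate block, 8879, 0 and 2 genes were called in the 3 comparisons. Calls of dcp2, rbbp5, gas5, cdkn1a and kdm4ab that involve the kdm4ab knockout, and of cnot6b between the knockouts, were lost with it.

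Signs changed for differences near 0, and also for larger differences of the log2 ratio of upf3a to upf3b. In the kdm4aa knockout against wild type, upf3b was at −0.07 to 0.06 with 1 library left out (−0.03 without wild type replicate 2 and −0.07 without kdm4aa knockout replicate 2), and smg6 at −0.0014 with RLE, −0.0013 by DESeq2, −0.0016 and −0.02 without wild type replicates 2 and 3, and −0.03 without kdm4aa knockout replicate 3, the range with 1 library left out being −0.03 to 0.05. Between the knockouts, smg9 was at 0.16 with 8 libraries, 0.01 without kdm4aa knockout replicate 1 and 0.17 without kdm4ab knockout replicate 2. The log2 ratio of upf3a to upf3b differed by 1.31 between the kdm4ab knockout and wild type. That difference was −0.04 without wild type replicate 2 (up to 2.61 with 1 library left out). Between the knockouts it was 1.08, and −0.22 without kdm4ab knockout replicate 2 (up to 2.16). Counts of upf3a were too few for a difference of its size to be told from the spread.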
